A study of Drosophila melanogaster with 15 samples.

Results

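Cellularization is the step of Drosophila embryogenesis in which the plasma membrane grows inward between the nuclei of the syncytial blastoderm and encloses each nucleus in a cell. It depends on a small set of genes that the zygotic genome transcribes in a brief burst around the onset of the process, together with actin, myosin, septin and formin machinery that the mother loads into the egg. The brief zygotic transcripts are cleared soon after the furrows close, at the start of gastrulation, whereas maternally supplied products of the same process stay in use.

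The genes described here are 9 genes of this process, 6 of them brief zygotic genes (nullo, bnk, Sry-alpha, slam, halo and kuk) and 3 of them supplied by the mother (dia, pnut and scra). A gene was taken up where a probe set of the array carried its symbol and no other. That rule found 8 of the 9 genes, with 1 probe set each, out of 11981 genes that had such a probe set, and 18952 probe sets in all. No probe set carried pnut as its only symbol, so pnut, which encodes a septin, is not analysed here. The maternal side of each comparison therefore rests on dia and scra alone. Per the RefSeq gene table, nullo lies on chromosome X, slam, halo and dia on 2L, bnk, Sry-alpha and kuk on 3R, and scra on 2R. The probe sets of kuk, dia and scra are of the types that the manufacturer's suffix marks as shared by several transcripts, and which transcripts they read was not tested.

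The arrays measured pools of whole embryos of the w[1118] strain, whose white eye colour mutation all groups carry, including the control. The irradiated embryos received 500 µGy of gamma rays at a dose rate of 22.4 mGy/h, and were frozen 5, 30, 60 or 90 min later, while control embryos were not irradiated. There were 3 arrays per group, lettered A, B and C in the labels, hence 12 irradiated arrays and 3 control arrays. Eggs were laid over an hour by flies in 6 bottles, pooled, kept at 23 °C and frozen at the labelled age of 3 to 4 h in every group. Time since irradiation and age at irradiation therefore cannot be told apart, and each pool mixes embryos that differ in age by up to the laying time. The labels call the replicates biological but say no more of their origin, so the p-values measure the spread between these samples.

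The values are microarray intensities as the authors scaled them, and differences are given on the scale of log2(intensity + 1), where a difference of 1 is a doubling. Of the gastrula stage markers, 11 of 12 had a probe set that passed the filter on dim probe sets, with twi (842.9 to 3409) and sna (605.9 to 2873) well above the array medians of 29.1 to 43.3. twi and sna encode transcription factors of the ventral, mesoderm-forming cells of the blastoderm and gastrula. In such pools, fewer cells of a type, or fewer embryos at a stage, and less RNA per cell cannot be told apart.

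The array of the 30 min group lettered B stood apart for the brief zygotic genes, so results of that group are given with and without it. It had the lowest intensity of all 15 arrays for nullo, Sry-alpha, slam and halo. The mean of the 6 brief zygotic genes, each centred on its own mean over the arrays, was -2.50 there on the log2 scale, against -0.41 to 0.57 in the other 14 arrays. The same mean over dia and scra was 0.29 in that array, within the -0.46 to 0.34 of the others. The late embryo markers (muscle, nerve and cuticle genes) had their highest summed intensity there, at 5998 over 8 genes with none at 0, where summed intensities were 1484 to 4568 in the 5 min group, 1103 to 5998 in the 30 min group, 2096 to 2730 in the 60 min group, 1292 to 2641 in the 90 min group and 603.7 to 3250 in the control group. Of these 8 markers, the muscle genes Mlc1 (4404) and up (851.1) and the nerve gene elav (500.1) each peaked in that array, while the other 5 peaked in other arrays, and Mlc1 made up most of the sum. Over 16 genes whose maternal RNA is cleared early, with none at 0, the summed intensity was lowest there, at 32889, with ranges of 33454 to 43808 in the 5 min group, 32889 to 62177 in the 30 min group, 33760 to 45169 in the 60 min group and 42737 to 55592 in the 90 min group, against 43872 to 73088 in the control group. CycB alone gave 15291.5 of that sum in the 30 min B array. Of these 16 genes, osk, twe, tor, stau, smg and CycB were not at their lowest there. stau (2990) and smg (6522) lay above their medians over the arrays (1910 and 6430). Of the gastrula stage markers, en peaked in that array (1486), while the others peaked in other arrays. The part of these genes and markers in the low zygotic values of that array was not tested.

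**Figure D1:**
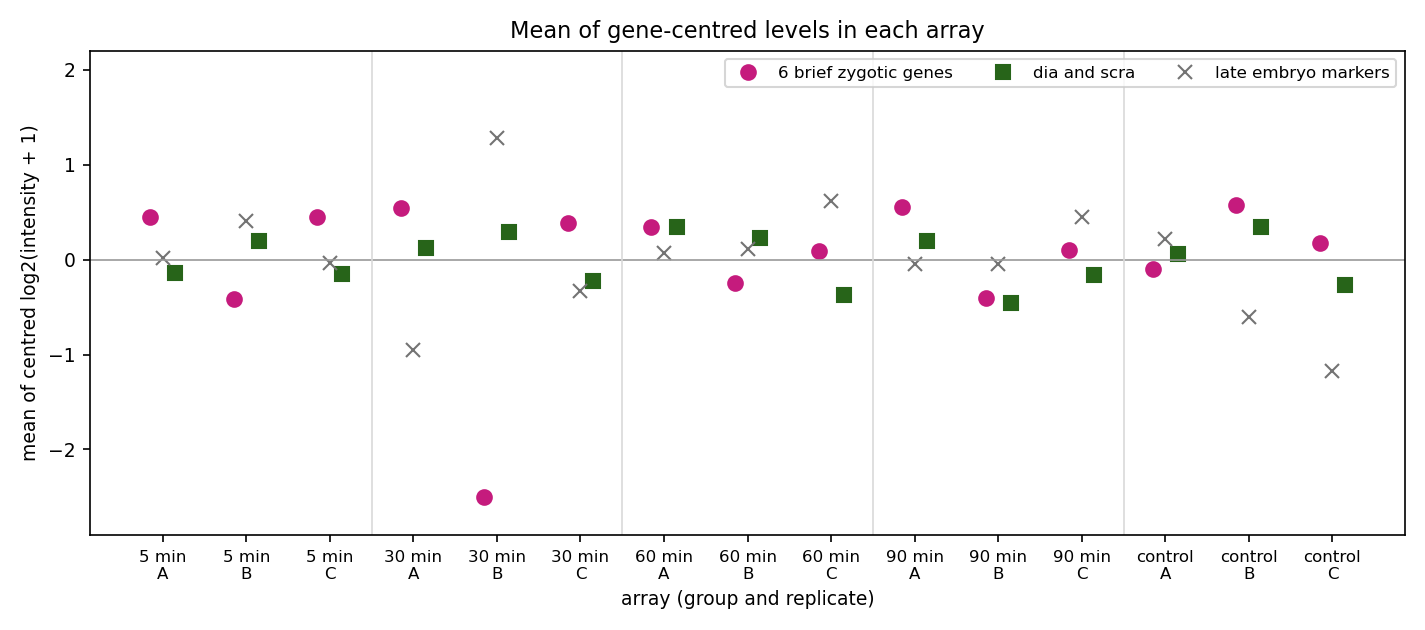
Mean of the gene-centred log2(intensity + 1) values in each of the 15 arrays (horizontal axis, by group and replicate letter, control at the right) for the 6 brief zygotic genes, for dia and scra, and for the 6 late embryo markers that passed the filter. The brief zygotic genes reach -2.50 in the 30 min B array and lie between -0.41 and 0.57 elsewhere, while dia and scra stay between -0.46 and 0.34 in the other arrays.

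nullo encodes a small protein of the furrow front that is needed for the basal junctions and for an even actin network. Its intensities in letters A, B and C were 2287, 170.5 and 1054 (5 min), 2950, 15.9 and 1140.4 (30 min), 2079, 309.4 and 664.4 (60 min), and 2555, 396.8 and 1290.3 (90 min), against 1413, 1745 and 2189 in the control. Irradiated arrays lay on both sides of the control, with 8 of 12 below all 3 control arrays and 3 of 12 above all 3. All 4 irradiated arrays of letter B were at or below 396.8, whereas the control array of letter B was not low. The 30 min B value was below the median of its array, the one such value for nullo.

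bnk (bottleneck) organises the actin and myosin rings at the furrow bases and holds back their early closure. It had 35.8, 86.2 and 258.1 in letters A, B and C (5 min), 106.5, 37.1 and 198.6 (30 min), 39.999, 40.1 and 156.1 (60 min), and 152.6, 142.2 and 125.0 (90 min), against 56.9, 170.6 and 173.1 in the control. Of the members, bnk was nearest to the background of its arrays, with 2 arrays at or below the array median. Its groups overlapped, with 6 of 12 irradiated arrays inside the range of the control.

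Sry-alpha, which lies in the serendipity gene cluster, is needed for the hexagonal actin network of the furrows. Its intensities in letters A, B and C were 12661, 9753 and 30013 (5 min), 8594, 2005 and 25391 (30 min), 10928, 13766 and 23064 (60 min), and 8767, 20333 and 17034 (90 min), against 5681, 10705 and 17208 in the control. Letter C held the highest value of each group other than the 90 min group. The ranges of irradiated and control arrays overlapped, with 7 of 12 irradiated arrays inside the range of the control.

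slam (slow as molasses) marks the furrow canal and is needed for the membrane to grow in. It had 18135, 9007 and 10838 in letters A, B and C (5 min), 14345, 654.2 and 10336 (30 min), 15739, 10070.4 and 8957 (60 min), and 13691, 5289 and 7707 (90 min), against 10764, 14113 and 6965 in the control. In letter A all 4 irradiated arrays were above the control array, and in letter B all 4 were below it.

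halo regulates the motor-driven transport of lipid droplets along microtubules during this stage. Its intensities in letters A, B and C were 15979, 6368 and 3894 (5 min), 12810.2, 1742 and 4331 (30 min), 14555, 8727 and 3613 (60 min), and 12242, 1885 and 3966 (90 min), against 8351, 13207 and 3161 in the control. Letter A was the highest in each irradiated group, and letter B in the control group. As for slam, the irradiated arrays lay above the control array in letter A and below it in letter B.

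kuk (kugelkern) encodes a farnesylated protein of the inner nuclear envelope that lengthens the nuclei as the cells form. It had 27466, 28122 and 24694 in letters A, B and C (5 min), 25320.5, 27066 and 25007 (30 min), 25304, 30545 and 24507 (60 min), and 22970.1, 21455 and 23729 (90 min), against 20546, 24019 and 19107 in the control. Of the 12 irradiated arrays, 9 were above all 3 control arrays and 3 lay within their range, all 3 of them in the 90 min group. The 30 min B array, the lowest for nullo, Sry-alpha, slam and halo, was not low for kuk.

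**Figure D2:**
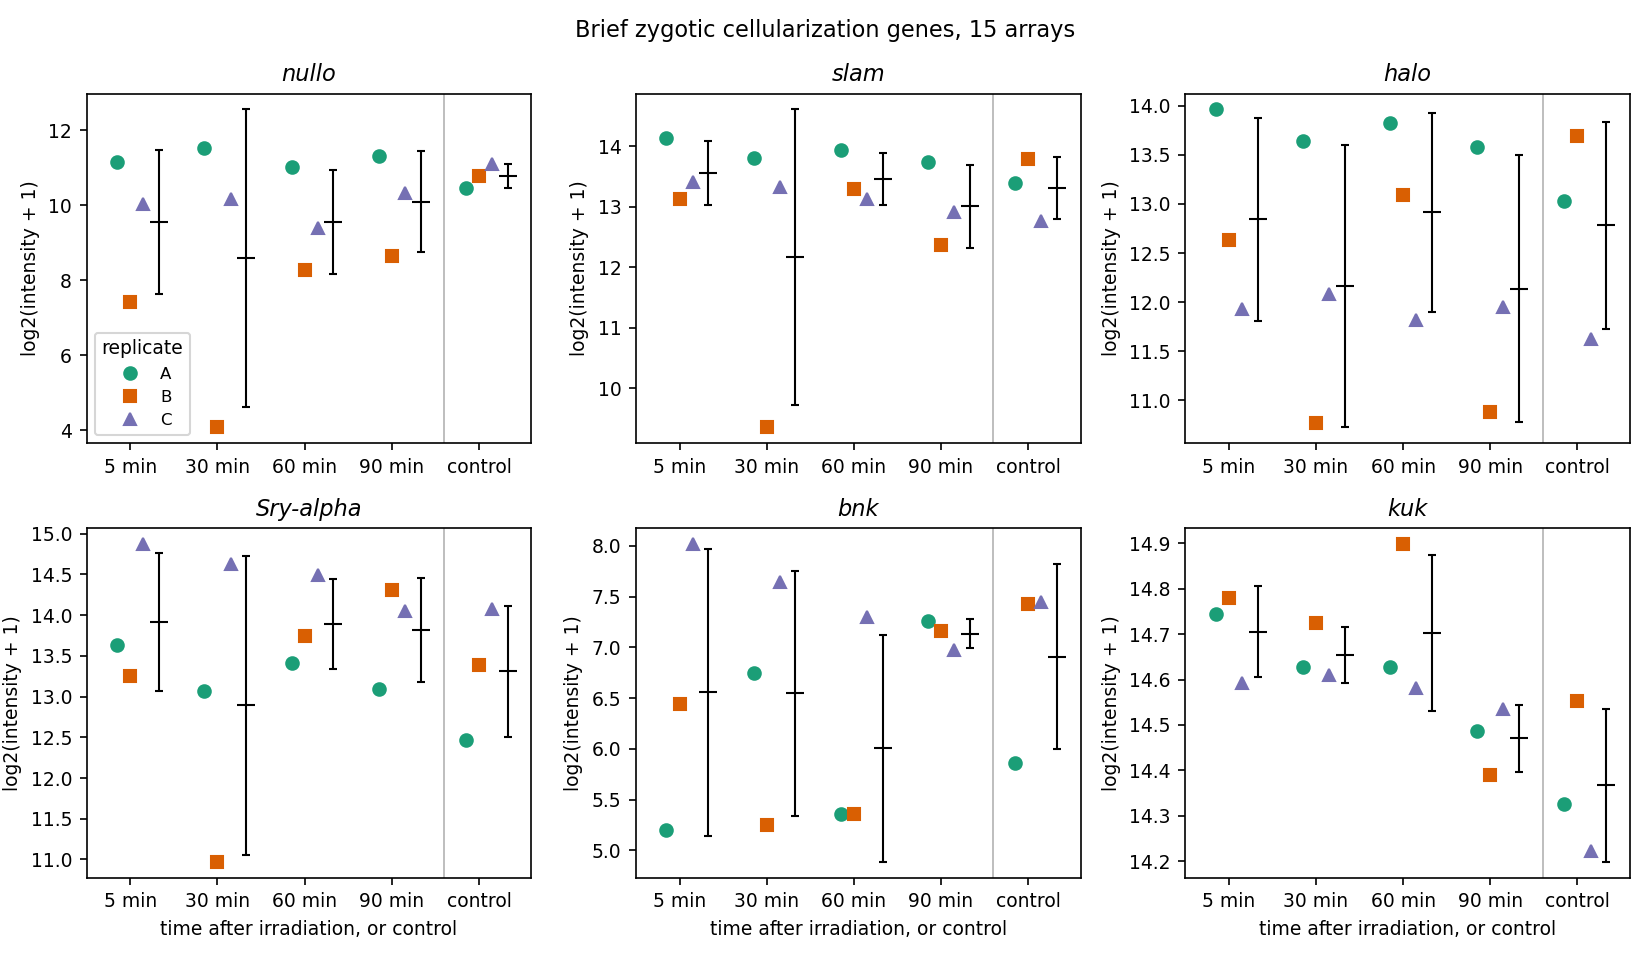
log2(intensity + 1) of the 6 brief zygotic genes (1 panel each) by time after irradiation, with the control at the right; points are single arrays with the replicate letter as marker, and bars are the mean ± SD of 3 arrays. The 30 min B array is far below the others for nullo, slam and Sry-alpha, while kuk stays within a narrow range in all 15 arrays.

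dia (diaphanous) encodes the formin that nucleates the furrow actin. Its intensities in letters A, B and C were 896.8, 1010.2 and 652.9 (5 min), 1146, 1352 and 578.3 (30 min), 1478, 1059 and 523.2 (60 min), and 1165, 463.6 and 569.8 (90 min), against 1042, 1221 and 605.2 in the control. Letter C was the lowest array of each group other than the 90 min group, where letter B was lower. scra encodes anillin, which links actin, myosin and septins in the furrow. It had 2379, 3384 and 3215 in letters A, B and C (5 min), 2690.3, 2883 and 3289 (30 min), 2827, 3339 and 2933 (60 min), and 2902, 2966 and 3651 (90 min), against 2687, 3416 and 2964 in the control. For scra, 10 of 12 irradiated arrays lay within the range of the control arrays.

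**Figure D3:**
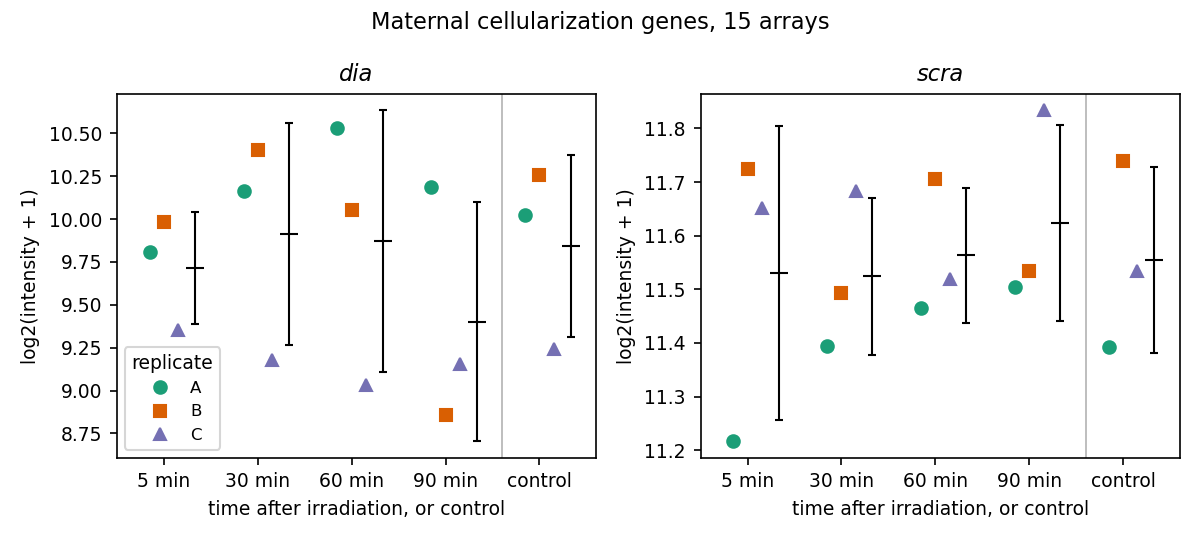
log2(intensity + 1) of dia and scra by time after irradiation, with the control at the right; points are single arrays with the replicate letter as marker, and bars are the mean ± SD of 3 arrays. dia is lowest in letter C at 5, 30 and 60 min and in the control, and the whole scale for scra spans less than a doubling.

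The first comparison set irradiated against control embryos, the contrast for which the series was made. None of the 8 genes passed the test in any of 6 contrasts, namely each of the 4 times against control, all irradiated groups averaged against control, and the slope over the 4 times (limma, Benjamini-Hochberg adjustment over 11261 probe sets, threshold 0.05). Among all probe sets the share called was 0% in each of these 6 contrasts. At an unadjusted p under 0.05, 404 of 11261 probe sets and 1 of the 8 genes (kuk) passed in the average over the irradiated groups. For the other contrasts the counts over all probe sets were 296 (5 min), 165 (30 min), 278 (60 min), 180 (90 min) and 150 (slope). kuk was the only one of the 8 genes to pass at 5 min and at 60 min, and 0 of the 8 passed in the other 3 contrasts. The fit behind these counts has no term for the letters, so differences between letters go into its SE. With the letters as a block, the SE of the kuk average was 0.08 in place of 0.12. At 30 min, 2 of the 8 genes (nullo and kuk) were then at an unadjusted p under 0.05, and 760 probe sets in all. Neither gene passed there by limma after adjustment (adjusted p of 0.73 for nullo and 0.70 for kuk). With the block, kuk alone was under 0.05 at 5 min, at 60 min and in the irradiated average, beside 1247, 1288 and 1625 probe sets in all. Its limma adjusted p was 0.30, 0.30 and 0.20, and no probe set passed.

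kuk was higher than its same-letter control in 11 of 12 irradiated arrays. Its log2 mean was 14.71 ± 0.10 at 5 min, 14.65 ± 0.06 at 30 min, 14.70 ± 0.17 at 60 min and 14.47 ± 0.07 at 90 min, against 14.37 ± 0.17 in the control (SD, n = 3 arrays each). The differences from control were 0.34, 0.29, 0.34 and 0.10 at the 4 times in that order, and 0.27 ± 0.12 (SE) for the mean of the irradiated groups, with a limma adjusted p of 0.978. Within letters A, B and C the irradiated arrays exceeded the control array by 0.30, 0.15 and 0.36. After quantile normalization between arrays, the difference of the mean fell to 0.03, so its size depends on the scaling, and the difference at 90 min turned to -0.11. Without control replicate C, the lowest of the 15 arrays for kuk, the difference was 0.19.

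nullo was lower than control at each time on average, by a difference of -1.24 at 5 min, -2.19 at 30 min, -1.22 at 60 min and -0.68 at 90 min, none of which passed the test. Over the irradiated groups the difference was -1.33 ± 1.21 (SE, 95% interval -3.92 to 1.26), with a limma adjusted p of 0.978. The direction was not shared by the letters: the irradiated arrays minus the control array gave 0.79 in letter A, -3.67 in letter B and -1.12 in letter C. Leaving out 30 min replicate B brought the difference of the mean to -0.77 and that at 30 min to 0.06.

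Letters also differed in direction for other zygotic genes, with letter C on the side of letter A for slam and halo and on that of letter B for nullo. For slam the difference of the irradiated arrays from the control array was 0.52 in letter A, -1.74 in letter B and 0.43 in letter C, and for halo 0.73, -1.84 and 0.32. Sry-alpha differed by 0.83, -0.32 and 0.44, with 2 of 4 irradiated arrays above the control array in letter B, and bnk by 0.29, -1.37 and 0.04, with 2 of 4 above it in letter A. Each letter has 1 control array, so these within-letter values rest on it. Averaged over all arrays, the differences of the mean were -0.35 ± 0.64 for bnk, 0.32 ± 0.59 for Sry-alpha, -0.27 ± 0.67 for slam and -0.27 ± 0.67 for halo (SE), with limma adjusted p of 0.984 to 0.995.

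At 30 min, 5 of the 6 brief zygotic genes had a negative difference from control. The values were -0.36 for bnk, -0.42 for Sry-alpha, -1.15 for slam and -0.62 for halo, beside the -2.19 of nullo. Without replicate B of that group all 5 changed sign, to 0.29 for bnk, 0.54 for Sry-alpha, 0.26 for slam, 0.08 for halo and 0.06 for nullo. The low 30 min averages of these genes thus rest on a single array.

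In the irradiated average and at 30 min, the maternal genes gave smaller differences than the brief zygotic genes, a contrast that was not tested. The difference of the mean was -0.12 ± 0.39 (SE, 95% interval -0.95 to 0.71) for dia and 0.01 ± 0.18 (SE, 95% interval -0.38 to 0.40) for scra, with limma adjusted p of 0.995 or above. At 30 min the values were 0.07 for dia and -0.03 for scra. At 90 min dia was at -0.44, larger in size than bnk (0.23), slam (-0.31) and kuk (0.10). It was smaller in size there than nullo (-0.68), Sry-alpha (0.51) and halo (-0.64). Within letters A, B and C dia differed by 0.15, -0.43 and -0.06 and scra by 0.00, -0.12 and 0.14. Set side by side with all arrays kept, the median difference of the mean was -0.27 over the 6 brief zygotic genes, -0.06 over dia and scra, and 0.04 over all 11261 probe sets. The brief zygotic median depends on the 30 min B array. Without that array the difference of the mean was -0.77 for nullo, -0.19 for bnk, 0.08 for slam and 0.26 for kuk. The medians were not computed without it, so they show no contrast between the classes. The interval of scra was the narrower of the maternal pair, and that of nullo was the widest of the 8 genes.

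**Figure D4:**
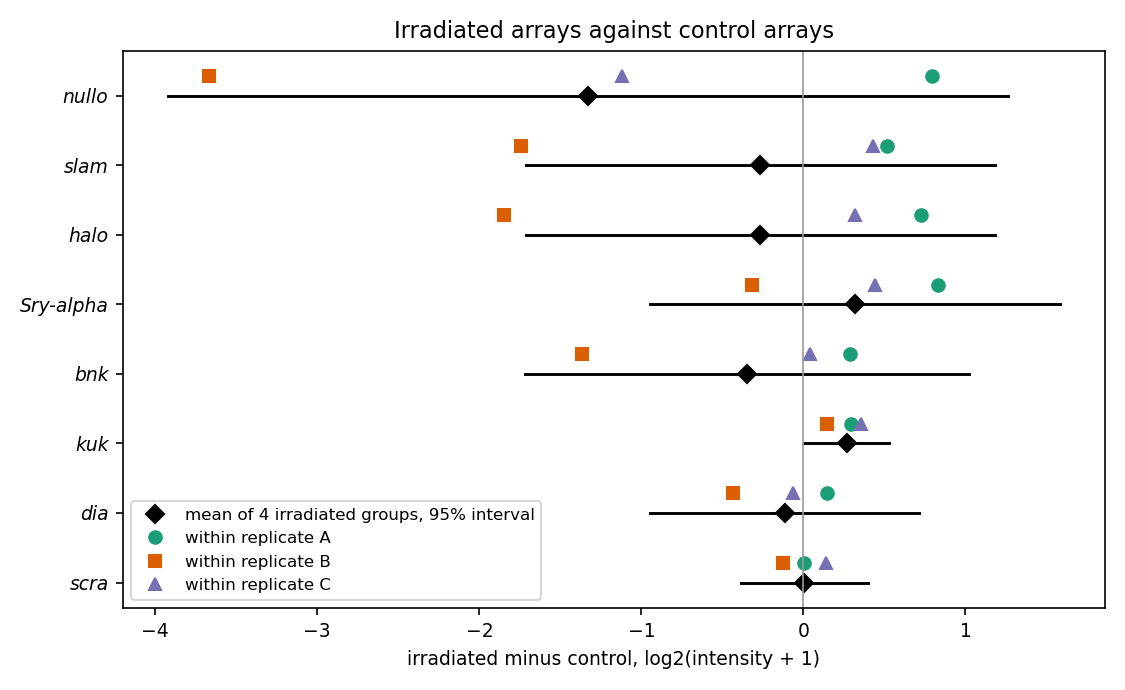
Difference of the mean of the 4 irradiated groups from the control on the log2(intensity + 1) scale for each of the 8 genes, with 95% intervals of the limma fit, and the differences within letters A, B and C as points. Within letter B the differences of nullo, bnk, slam and halo are -3.67, -1.37, -1.74 and -1.84, while within letter A all 4 of these genes are above 0.

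The genes differed widely in how much they varied between arrays of the same group. The residual SD of the log2 values was 2.16 for nullo, 1.20 for slam, 1.19 for halo, 1.05 for bnk and 1.04 for Sry-alpha, against a median of 0.78 over all probe sets. It was 0.61 for dia, 0.19 for scra and 0.12 for kuk. nullo lay at the 98.9th percentile of all probe sets and kuk at the 0.284th. These percentiles are over probe sets of all intensities, and kuk was bright (19107 to 30545). A comparison with probe sets of like intensity was not made. Without the 30 min B array the residual SD was 1.33 for nullo, 1.12 for halo, 0.98 for bnk, 0.77 for Sry-alpha, 0.53 for slam, 0.61 for dia, 0.20 for scra and 0.13 for kuk, against a median of 0.76. Over all arrays 5 of the 6 brief zygotic genes thus varied more than the median probe set, but without that array slam varied less and Sry-alpha lay close to the median, while kuk, dia and scra varied less either way. Between the lowest and highest of the 15 arrays the ratio of intensities was 186 for nullo, 27.7 for slam, 15.0 for Sry-alpha, 9.17 for halo and 7.21 for bnk, and 3.19 for dia, 1.60 for kuk and 1.53 for scra. The 30 min B array set the lowest value for 4 of these genes, and without it the ratio was 17.3 for nullo, 8.48 for halo, 5.28 for Sry-alpha and 3.43 for slam.

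The second comparison was between the replicate letters, fitted with the groups in the model, so that each letter is averaged over the same 5 groups. What the letters share is not stated beyond the word biological. Of the 8 genes, 4 differed between the letters (nullo, adjusted p = 0.0097; halo, adjusted p = 0.013; dia, adjusted p = 0.015; Sry-alpha, adjusted p = 0.030; limma F test). Over all probe sets 48.4% were called, so the share of 4 in 8 is near the background and is no result about these genes as a group. dia lost this call without 30 min C or 60 min C (adjusted p = 0.058 and 0.064), and Sry-alpha without 5 min B, 5 min C, 30 min C, 60 min A, 60 min C, 90 min A or control C (adjusted p of 0.052 to 0.13). Quantile normalization changed which genes were called, since dia (adjusted p = 0.071) and Sry-alpha (0.079) lost the call and bnk (0.029) and kuk (0.0059) gained it. bnk (adjusted p = 0.058), slam (0.12), scra (0.17) and kuk (0.26) did not pass with all arrays in the deposited scaling. scra and kuk did without 90 min B (adjusted p = 0.043 and 0.023), slam without 30 min B or control B (0.030 and 0.035), and bnk without any 1 of 6 arrays (30 min A, 30 min B, 90 min A, 90 min B, 90 min C or control B; 0.017 to 0.050).

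Letter B was lower than letter A for nullo and for no other of the 8 genes by the test. nullo had a lowest, median and highest intensity of 15.9, 309.4 and 1745 in letter B, against 1413, 2287 and 2950 in letter A, and the 2 sets overlapped only through the control array of letter B. The difference was -3.26 ± 0.77 (SE), with a limma adjusted p of 0.018. Its call was lost, at adjusted p of 0.054 to 0.058, without replicate A of the 30, 60 or 90 min group, while the difference stayed at -2.68 or below, and with the level of the spike-in control RNA as a covariate (-3.14, adjusted p = 0.063). slam at -1.42 ± 0.55 (adjusted p = 0.099) and halo at -1.40 ± 0.44 (adjusted p = 0.051) did not pass, and the other 5 genes lay between -0.23 and 0.25. Without control B both passed, slam at -1.86 (adjusted p = 0.031) and halo at -1.87 (adjusted p = 0.0061). Among all probe sets 7.4% were called higher and 7.26% lower in letter B, so 1 call in 8 genes is near the background.

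Between letters C and A, 4 of the 8 genes passed, in opposite directions. halo fell by 1.73 ± 0.44 (SE) on the log2 scale in letter C (limma adjusted p = 0.0064), with 3161 to 4331 in letter C against 8351 to 15979 in letter A and no overlap. dia fell by 0.95 ± 0.25 (limma adjusted p = 0.0070), with 523.2 to 652.9 in letter C against 896.8 to 1478 in letter A, again with no overlap. Sry-alpha rose by 1.29 ± 0.42 (limma adjusted p = 0.023), with 17034 to 30013 in letter C against 5681 to 12661 in letter A and no overlap. bnk rose by 1.39 ± 0.48 (limma adjusted p = 0.032), with 125.0 to 258.1 in letter C against 35.8 to 152.6 in letter A, where the 90 min A array overlapped. Among all probe sets 20.8% were called higher and 24.8% lower in letter C. The 4 calls in 8 genes are thus near the background and are no result about these genes as a group. The share of all probe sets with no overlap between letters C and A was not counted.

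The remaining genes did not differ between letters C and A by the test, at -0.90 ± 0.77 for nullo, -0.70 ± 0.55 for slam, -0.06 ± 0.08 for kuk and 0.25 ± 0.12 for scra (SE). slam passed without 30 min replicate B (adjusted p = 0.016), scra passed without 90 min replicate B (0.25, adjusted p = 0.049), and kuk passed after quantile normalization (-0.57, adjusted p = 0.0025). The calls of Sry-alpha and bnk were lost when single arrays were left out, at adjusted p of 0.053 to 0.10. For Sry-alpha these were 5 min C, 30 min C, 60 min A, 90 min A and control A, and for bnk 5 min A, 5 min C, 30 min C, 60 min A, 60 min C and control A. Sry-alpha also lost its call after quantile normalization (0.82, adjusted p = 0.11), whereas those of halo and dia held without any single array. The letters also differ in the level of the 18 hybridization spike-in probe sets, control RNA added in the laboratory. It was 11.36 to 11.74 on the log2 scale in 7 arrays, among them all of letter C, against 10.72 to 11.09 in 8 arrays, among them all of letter A. With that level as a covariate none of the 8 genes passed between letters C and A, where the spike-in level and the letter cannot be told apart.

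**Figure D5:**
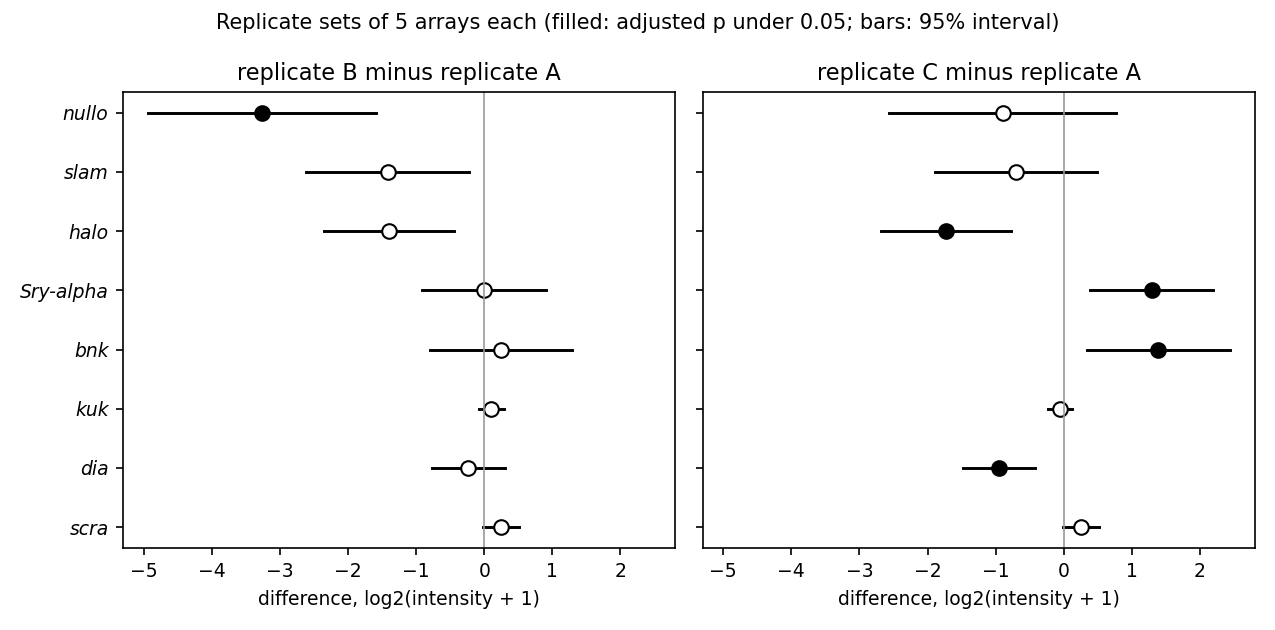
Difference of letter B and of letter C from letter A on the log2(intensity + 1) scale for each of the 8 genes, with 95% intervals from the limma fit that holds the groups fixed. nullo is at -3.26 in letter B, and in letter C halo and dia are at -1.73 and -0.95 while Sry-alpha and bnk are at 1.29 and 1.39.

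The brief zygotic genes were also compared in how they varied over the 15 arrays. slam and halo went together, with a Pearson r of 0.76 and a Spearman coefficient of 0.92, an r of 0.81 with each letter centred and 0.92 without the 30 min B array. nullo went with slam at r = 0.86 (Spearman 0.68), at 0.84 with the letters centred and at 0.55 without that array. Sry-alpha and bnk gave r = 0.63 (Spearman 0.63), and 0.37 with the letters centred, while with the letters centred Sry-alpha was nearer to slam (0.83) and nullo (0.70). Without the 30 min B array, and with the letters not centred, Sry-alpha gave -0.45 with slam and -0.23 with nullo. The r of kuk with the other zygotic genes lay between -0.49 and 0.26. Between the classes, Sry-alpha ran opposite to dia at r = -0.75 (Spearman -0.75), and at -0.54 with the letters centred. halo and dia gave r = 0.61 (Spearman 0.53), 0.37 with the letters centred and 0.91 without the 30 min B array. The points share arrays, letters and the authors' scaling, and these values, out of 28 pairs, are descriptions without a test.

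The gene whose pattern was most like the mean of the 6 brief zygotic genes, among 8627 others, was Elba3, which encodes a subunit of an insulator-binding complex of the early embryo (r = 0.98 over 15 arrays, 0.98 with the letters centred and 0.92 without the 30 min B array). Bro, a partner of the Runt transcription factor, followed at r = 0.98, and scw, a BMP ligand of the blastoderm, at 0.97. The next were CG15382 at 0.95, CG13711 at 0.94, Faf2 at 0.93, ZnT49B at 0.92 and Top1 at 0.92. The 30 min B array weighed on these values, since without it CG13711 came to 0.62 and Faf2 to 0.66. The genes most like the mean of dia and scra were siz at 0.94, Helz at 0.94, CG5888 at 0.93, Srrm234 at 0.93, CG42724 at 0.92, CG31550 at 0.92, CG10747 at 0.92 and Ibf1 at 0.91, of which siz was 0.93 without that array.

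Taken singly, halo was followed most closely by Elba2, another subunit of the same complex (r = 0.98, and 0.98 without the 30 min B array). Sry-alpha was followed by CG34214 (r = 0.99, 0.98 without that array), slam by CG15382 (0.97, then 0.85), nullo by ZnT49B (0.97, then 0.92) and bnk by CG13998 (0.84, then 0.83). kuk was followed by CG9776 (0.94, also 0.94 without that array), dia by siz (0.97, also 0.97) and scra by pins (0.83, then 0.82).

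The wider machinery of cellularization was read through gene lists, with 1 probe set per gene. With the irradiated groups averaged, 0 genes of any list passed against control by limma, at an adjusted p of 0.978 or above throughout. The furrow actin, myosin and septin list had 18 genes tested, 12 higher and 6 lower, with a median difference of 0.14 against 0.03 over all genes. Its ends were cher (filamin) at 0.57 ± 0.41 and Septin5 at 0.55 ± 0.27, and the actin nucleators capu at -1.35 ± 0.82 and spir at -1.10 ± 0.78 (SE).

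The membrane supply and vesicle traffic list had 2 of 11 genes higher and 9 lower, with a median of -0.31. nuf, a recycling endosome adaptor, was at 0.58 ± 0.53 and klar, a regulator of motor-driven transport, at 0.56 ± 0.42, while the lipid droplet coat protein gene Lsd-2 was at -1.43 ± 0.67 and the dynein heavy chain gene Dhc64C at -0.79 ± 0.65. The junction and polarity list had 10 of 15 genes higher and 5 lower (median 0.17), with the polarity genes sdt at 0.75 ± 0.47 and aPKC at 0.59 ± 0.38, and the junction genes cno at -0.63 ± 0.73 and ed at -0.37 ± 0.74. The nuclear envelope and lamina list, the company of kuk, had 2 of 6 higher and 4 lower (median -0.12), with bocks at 0.55 ± 0.41 and Msp300 at 0.43 ± 0.53, and MAN1 at -0.71 ± 0.52 and koi at -0.55 ± 0.89. Of 18 other early zygotic genes, 11 were higher and 7 lower (median 0.14), with Ance at 1.09 ± 0.57, btd at 1.06 ± 0.84, Nin at -0.60 ± 0.60 and sc at -0.58 ± 0.75.

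Between letters C and A the same lists held many calls, beside 20.8% higher and 24.8% lower over all probe sets. In the furrow list 5 of 18 genes were higher in letter C and 7 lower, with Septin5 at 0.70 ± 0.11 and spir at -2.43 ± 0.31. In the traffic list 2 of 11 were higher and 6 lower, and Lsd-2, whose product sits on the droplets that halo helps to move, was at -1.65 ± 0.28. In the junction and polarity list 2 of 15 were higher and 9 lower, with cno at -2.30 ± 0.34, and in the nuclear envelope list 0 of 6 were higher and 4 lower, with koi at -2.87 ± 0.38 (SE, limma adjusted p of 4.5e-04 or below for Septin5, spir, cno and koi, and of 5.8e-04 for Lsd-2). Of the other early zygotic genes 3 of 18 were higher and 10 lower, with Ance at 1.63 ± 0.25 and sc at -2.08 ± 0.44. Between letters B and A, where 7.4% of all probe sets were called higher and 7.26% lower, the calls were fewer, at 2 higher and 1 lower in the furrow list, 1 and 4 in the traffic list, 1 and 1 in the junction list, 0 and 1 in the nuclear envelope list and 2 and 4 among the other early zygotic genes.

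Markers of stage and of other cells also held calls between the same letters, in numbers that differed from list to list. Beside 20.8% higher and 24.8% lower over all probe sets, 1 of 11 gastrula stage markers was higher in letter C and 9 were lower, and 0 of 8 pole cell markers were higher and 6 lower. Of the 16 maternal clearance genes 1 was higher in letter C and 7 were lower, and these 8 calls are near the background. Of the 6 late embryo markers tested, 1 was higher in letter C and 1 lower. In letter B, beside 7.4% and 7.26% over all probe sets, 0 of 16 maternal clearance genes were higher and 7 lower. Of the 8 pole cell markers 0 were higher and 4 lower in letter B. For the 11 gastrula stage markers the counts there were 1 and 0, and 0 of 6 late embryo markers were called. Over the 11 gastrula stage markers, with none at 0, summed intensities ran over 5415 to 14963 (5 min), 5748 to 13670.2 (30 min), 5234 to 15902 (60 min) and 4514 to 11809 (90 min), against 3387 to 15083 in the control. Over the 8 pole cell markers, with none at 0, they ran over 19031 to 21904 (5 min), 19304 to 30220 (30 min), 19767 to 21968 (60 min) and 22422 to 26511 (90 min), against 21730.3 to 30184 in the control. CycB alone ran over 12803 to 21715 and made up most of these pole cell sums. The highest value of any other pole cell marker was 5051 (gcl), so the sums mainly follow CycB. The part of these markers in the letter differences of halo, dia, Sry-alpha and bnk was not tested.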

How the data were processed

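The authors deposited intensity values on a linear scale for 18952 probe sets and 15 arrays. The submitters' processing notes name MAS5, and the sources used here give no version of it. MAS5 combines the probes of a probe set into 1 intensity, and its dim values are noisy. Each deposited column had a mean of 500.01 to 500.02 once 2% of values were trimmed at both ends, so no further scaling was applied. The number of arrays limits the precision.

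The platform table gave 13646 probe sets 1 gene symbol, 402 several and 4904 none. Symbols of 13543 probe sets were looked up by Entrez identifier in the RefSeq table of assembly Release 6, and 0 changed. Values were taken as log2(intensity + 1), which understates differences of dim genes. The 183 control probe sets were left out, and the 11261 probe sets at or above the 40th percentile of mean log2 intensity were kept, all 8 genes among them. limma 3.58.1 (R 4.3.3; lmFit, then eBayes with an intensity trend) fitted the 5 groups for the irradiation contrasts, and group plus letter for the letter contrasts. All tests were two-sided, p-values were adjusted over all probe sets by Benjamini-Hochberg, and the threshold was 0.05. The fits were also run on simulated arrays. Their noise was independent between arrays, and only a small set of probe sets held letter differences. They therefore do not show how the group fit does under the letter differences of the real arrays.

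As a check of pairing, deviations of same-lettered arrays from their group means correlated at 0.217 to 0.665 between the control and the 5, 30 and 60 min groups, so the letters pair these arrays. Between the control and the 90 min group letters A and C gave 0.501 and 0.311. Letter B gave -0.299 there, so only the letter B arrays do not pair in that group. At most 0.00528% of values were identical between any 2 arrays. Alternatives were another pseudocount, no filter, quantile normalization, the spike-in level as a covariate, a replicate block, and leaving out each array.

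The genes and lists were chosen with earlier results of these data known. The rule named all 9 genes, the 2 highest and 2 lowest of each list in the irradiated average, and the 8 genes most like each class. The closest gene to each single member, the list genes named between letters and the markers named for the 30 min B array were chosen after their values were seen.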

Additional observations from a re-analysis of the deposited data

Results flagged for a closer look

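For kuk, the control array of letter C (19107) lay apart below the other 4 arrays of that letter (23729 to 25007), with a gap of 0.805 of the range of the letter. For dia, the 90 min array of letter B (463.6) lay apart below the other 4 arrays of letter B (1010.2 to 1352), with a gap of 0.727. These are 2 sets out of 24 examined, where chance gives about 1 in 20.

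For nullo, slam and halo, the 4 irradiated arrays of one letter all lay above the control array of that letter, and those of another letter all lay below theirs. nullo differed by 0.79 on the log2 scale in letter A, by -3.67 in letter B and by -1.12 in letter C. slam differed by 0.52 in letter A, by -1.74 in letter B and by 0.43 in letter C. halo differed by 0.73 in letter A, by -1.84 in letter B and by 0.32 in letter C. The difference between letters was not tested, and each letter has 1 control array. The share of all probe sets with such opposite letters was not counted, so these 3 genes are no result about the 8 genes as a group. Their values also went together over the arrays, at r of 0.61 to 0.86.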

How the results depend on the processing

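Against control, 0 of the 8 genes passed under every alternative run, and 0 probe sets, except for 19 probe sets, none of them of the 8 genes, in the irradiated average under the replicate block with quantile normalization. The replicate block, fixed or random (correlation 0.447), changed no call. It gave kuk an adjusted p of 0.20 and nullo one of 0.46 in limma, with 1625 probe sets at an unadjusted p under 0.05. Directions of differences that had not passed turned in some settings. With the spike-in covariate the irradiated averages were 0.15 for dia, 0.20 for halo, -0.032 for scra and -0.029 for Sry-alpha, and letter differences from A were 0.19 for dia in B and 0.16 for kuk in C. That covariate left 1 of the 8 genes with any letter difference, 0 in B and 0 in C, with 1283 probe sets called for any letter and 96 for C. Quantile normalization, alone or with the block, gave -0.11 for kuk at 90 min and -0.037 for the scra average, and alone -0.15 for kuk in B. In letter B, 2 genes passed after quantile normalization and 2 with log2(intensity + 16). The cause was not tested.

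With single arrays left out, the differences at 30 min ran over -3.66 to 0.064 for nullo, -0.91 to 0.29 for bnk, -1.29 to 0.54 for Sry-alpha, -1.97 to 0.26 for slam, -1.36 to 0.082 for halo, -0.23 to 0.44 for dia and -0.11 to 0.061 for scra, and nullo at 90 min over -1.29 to 0.050. Irradiated averages ran over -0.099 to 0.70 for Sry-alpha, -0.54 to 0.085 for slam, -0.84 to 0.19 for halo, -0.42 to 0.090 for dia and -0.076 to 0.098 for scra. Letter B minus A ran over -0.063 to 0.62 for bnk, -0.35 to 0.56 for Sry-alpha and -0.36 to 0.030 for dia. The genes called numbered 2 (without 30 min replicate C) to 7 (without 90 min replicate B) for any letter, 0 (without 30 min replicate A) to 3 (without control replicate B) for B and 2 (without 5 min replicate C) to 5 (without 30 min replicate B) for C, and probe sets called for B 483 to 2296. Over the single-gene results, 845 alternatives kept direction and side of the threshold, 34 lost a call, 21 gained one and 40 turned direction.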

Other observations

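A list of 16 maternal RNAs that are cleared in the early embryo was read beside the cellularization genes. With the irradiated groups averaged against control, 15 of the 16 lay lower and 1 lay higher, with a median difference of -0.90 on the log2 scale against 0.03 over all genes, and 0 passed the limma test (adjusted p of 0.978 or above). The ends of the list were exu at -1.86 ± 0.78 and alphaTub67C at -1.79 ± 0.76, and CycB at -0.12 ± 0.15 and plu at 0.04 ± 0.37 (SE). The list was lowest in the 30 min B array, with a mean of centred log2 values of -1.07, against 0.07 to 1.41 in the control arrays. The irradiated arrays of letter A (0.18 to 0.86) and the 90 min B array (0.21) lay inside that control range, and the other irradiated arrays lay below it.

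Of 8 pole cell markers all 8 lay lower in the irradiated average (median -0.51), with zpg at -1.36 ± 0.64, piwi at -1.11 ± 0.61, aub at -0.08 ± 0.35 and vas at -0.07 ± 0.54. CycB stands in both lists. Of 6 late embryo markers 5 were higher (median 0.71), with elav at 1.25 ± 0.61, repo at 0.94 ± 0.52, up at 0.32 ± 0.59 and brp at -0.03 ± 0.75. Among them nSyb and brp were dim, with median intensities of 13.8 and 22.5 below the array medians of 29.1 to 43.3. The centred mean of these 6 markers was highest in the 30 min B array (1.28) and lowest in the control C array (-1.17). Of 11 gastrula stage markers 8 were higher (median 0.16), with en at 1.11 ± 0.74, twi at 0.57 ± 0.33, fog at -0.54 ± 0.42 and mthl1 at -0.71 ± 0.47 (SE). None of these markers passed the limma test (adjusted p of 0.978 or above), and their part in the values of the cellularization genes was not tested.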
